A study of Mus musculus with 8 samples.

Results

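The genes described here are the receptors and enzymes of sphingosine 1-phosphate (S1P) in mouse blood monocytes: the receptors S1pr1, S1pr2, S1pr3, S1pr4 and S1pr5, the sphingosine kinases Sphk1 and Sphk2, and the S1P lyase Sgpl1. They were chosen by name, and a probe set counted for a gene when it was annotated to that symbol alone. Where a gene had several, the brightest by its 8-array mean was used, which gave 8 genes of 18193 measured, from 14 probe sets. S1pr1, S1pr4 and S1pr5 had a single probe set each, so their readings rest on that probe set alone. Male C57BL/6 mice had received fluorescent latex beads of 1 µm by vein, and 4 days later blood monocytes were sorted and hybridised to Affymetrix mouse arrays. Of the 4 groups, of 2 arrays each, the Gr1hi groups hold classical monocytes (high in Ly-6C) that carried beads or did not. The Gr1lo groups hold nonclassical monocytes (low in Ly-6C) that carried beads or did not. Clodronate liposomes, which deplete phagocytes, were given 3 days before the beads. The series text states this for the whole experiment, whereas the treatment protocol states it for Gr1hi cells and leaves it out for Gr1lo cells, so subset and pretreatment cannot be told apart under the second account. The number of mice per array is not given in the sources used here, and p-values therefore measure the spread between arrays, which may be technical.

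S1P is a lipid made from sphingosine by the sphingosine kinases. It is abundant in blood and scarce inside tissues, because the lyase Sgpl1 destroys it in most cells, and blood cells read this gradient through G-protein-coupled receptors. S1pr1 is best known for letting lymphocytes leave lymphoid organs, S1pr5 for the exit of natural killer (NK) cells and patrolling monocytes from the bone marrow, and S1pr2 for opposing migration. S1pr4 is largely restricted to blood cells, and S1pr3 is prominent in endothelium and smooth muscle.

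The promoters of the 3 receptors that differed between the subsets are shown because the results turn on these genes and because their base composition is unlike. RefSeq (GRCm38.p6) gave promoters for 7 of the 8 genes, at 12 start sites. S1pr1 had none, so its promoter was not searched. Each sequence below is the 250 bases before the start site, read 5′ to 3′ along the gene's strand, with CpG dinucleotides in capitals. The positions are chr9:21248444-21248693 for S1pr5, chr10:81500138-81500387 for S1pr4 and chr9:20976794-20977043 for S1pr2, each on the minus strand.
S1pr5: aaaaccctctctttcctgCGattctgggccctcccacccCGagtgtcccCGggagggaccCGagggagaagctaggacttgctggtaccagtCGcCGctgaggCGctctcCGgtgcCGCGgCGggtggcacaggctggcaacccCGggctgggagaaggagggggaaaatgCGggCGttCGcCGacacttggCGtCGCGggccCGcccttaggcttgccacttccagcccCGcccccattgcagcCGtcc
S1pr4: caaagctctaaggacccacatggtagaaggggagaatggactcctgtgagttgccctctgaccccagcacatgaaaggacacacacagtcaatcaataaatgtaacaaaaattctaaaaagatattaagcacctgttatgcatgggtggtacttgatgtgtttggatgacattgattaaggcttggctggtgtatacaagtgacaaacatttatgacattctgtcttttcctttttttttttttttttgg
S1pr2: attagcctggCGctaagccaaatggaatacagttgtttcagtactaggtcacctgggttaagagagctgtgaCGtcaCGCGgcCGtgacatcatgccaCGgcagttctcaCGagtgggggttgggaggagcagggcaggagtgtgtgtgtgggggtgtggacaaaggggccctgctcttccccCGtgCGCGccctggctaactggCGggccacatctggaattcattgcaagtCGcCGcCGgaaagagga
The S1pr5 window held 22 CpGs, more than 85.2% of the 32851 promoters in the table, and the S1pr2 window held 14. The S1pr4 window held 0, against a median of 6 over all promoters. The windows from 250 bases before to 50 after each start were searched on both strands for AAAGGTCA (NR4A factors), CCACACCC (Kruppel-like factors), AGGTGTGA (T-box factors) and GAGGAAGT (PU.1). None of these was found in the S1pr5 or S1pr4 window. CCACACCC was found in the S1pr2 window alone among the 12, 98 bases before the start on the opposite strand, and 3.56% of all promoters hold it. The other motifs occur in 1.51% (NR4A), 1.27% (T-box) and 3.20% (PU.1) of all promoters.

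Levels are log2 units as the authors deposited them, and levels of different probe sets are not comparable with each other. A level of 6.98, the 95th percentile of the means of 114 olfactory, vomeronasal, taste receptor and keratin-associated genes, served as background. The sorted cells carried the monocyte receptor gene Csf1r at 13.99 to 14.53 on all arrays. The mean of 10 nonclassical markers was 11.95 to 12.22 on Gr1lo arrays and 8.65 to 9.11 on Gr1hi arrays. The mean of 7 measured classical markers was 12.06 to 12.43 on Gr1hi arrays, 7.75 to 7.95 on Gr1lo arrays with beads, and 9.73 and 10.57 on the Gr1lo arrays without beads. The Gr1lo arrays without beads thus carried more classical marker signal than those with beads. Array 1 of that group stood apart from array 2 in Fn1 (13.63 against 10.87), in the macrophage genes C1qa (11.37 against 8.16), Cd163 (7.25 against 4.61) and Timd4 (7.13 against 5.04), and in the platelet gene Pf4 (11.36 against 7.70). Without array 1, the difference from Gr1hi cells without beads was 5.75 for S1pr5, -0.35 for S1pr2, -0.85 for Sphk2 and -0.90 for Sgpl1, all still called (limma adjusted p 2.12e-07 to 0.0459). The part of these genes in the results was not tested. The poly-A controls, bacterial RNAs spiked in at labelling, differed between the subsets (7.47 ± 0.23 (SD, n = 2) in Gr1hi and 8.39 ± 0.36 in Gr1lo cells without beads, 9.0 ± 0.25 and 9.70 ± 0.01 with beads). The hybridization controls were at 11.13 and 10.94 without beads and at 11.32 and 12.01 with beads, in the same order, and the part of either set in the subset differences was not tested.

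S1pr5 was high in Gr1lo monocytes and below background in Gr1hi monocytes, whether or not they carried beads. On the Gr1lo arrays it read 11.35 and 11.62 without beads, and 11.64 and 11.77 with beads. On the Gr1hi arrays it read 5.85 and 5.89 without beads, and 5.57 and 5.48 with beads. Every Gr1lo array lay far above every Gr1hi array. Without beads the means were 11.49 ± 0.19 (SD, n = 2) and 5.87 ± 0.03. The difference was 5.62 ± 0.11 (SE; limma adjusted p = 6.48e-08, by Benjamini-Hochberg over all genes). With beads they were 11.71 ± 0.10 and 5.53 ± 0.07, higher by 6.18 ± 0.11 (limma adjusted p = 5.23e-08). Because the Gr1hi readings lay below background, the fold is given as a bound with Gr1hi set to the background level: Gr1lo cells were at least 22.8-fold higher without beads and at least 26.5-fold higher with beads. Averaged over bead state the difference was 5.90 ± 0.08 (limma adjusted p = 4.13e-09). With Gr1hi set to background it was 4.62. In bulk RNA of sorted cells, fewer cells that express a gene and less RNA per cell cannot be told apart.

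**Figure D1:**
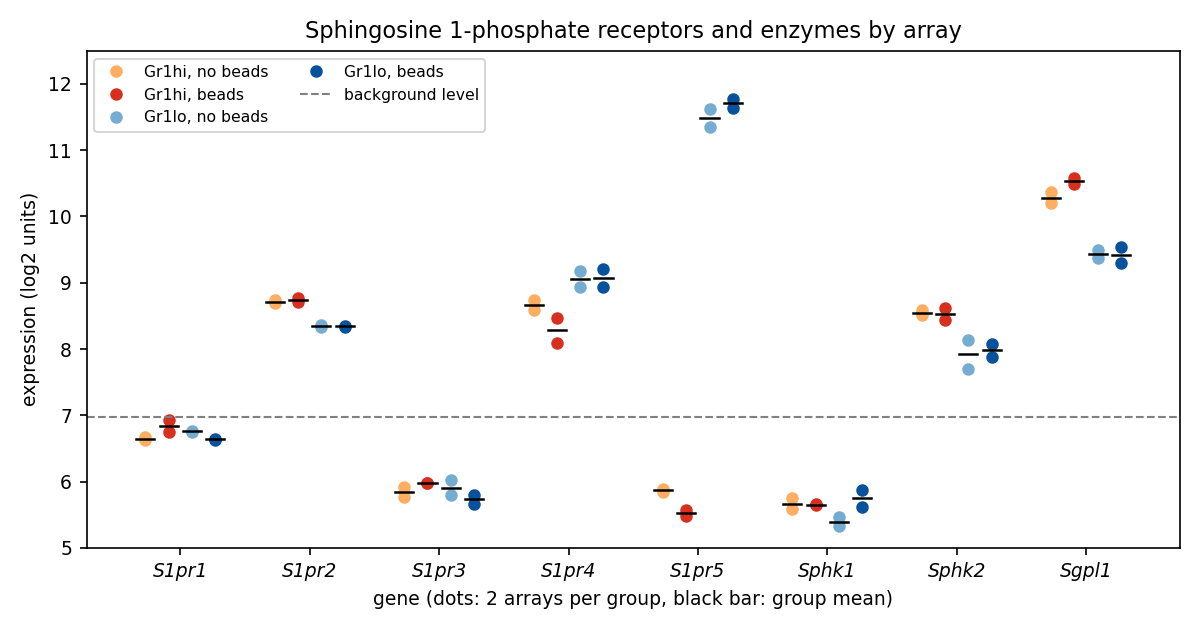
Expression of the 8 genes on each array, in log2 units, by gene. Dots are the 2 arrays of a group, black bars group means and the dashed line the background level of 6.98; S1pr5 is at 11.35 or more on all 4 Gr1lo arrays and at 5.89 or less on all 4 Gr1hi arrays, S1pr1, S1pr3 and Sphk1 lie under the line throughout, and heights of different genes are not comparable.

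NK cells also carry S1pr5, so their markers are given beside it. Of 12 measured NK markers, 4 had a group mean above background in Gr1lo cells without beads, 2 in Gr1lo cells with beads, 3 in Gr1hi cells without beads and 1 in Gr1hi cells with beads. The mean of the list was 6.21 to 6.29 on Gr1lo arrays without beads, 5.91 to 6.00 on Gr1lo arrays with beads and 5.92 to 6.10 on Gr1hi arrays. Among those below background on all 8 arrays were the NK receptor Ncr1 (5.80 to 6.12) and the NK transcription factor Eomes (4.56 to 4.77). On the Gr1lo arrays without beads, those above background were the receptor chain Klrd1 (7.55 and 7.80), the receptor Klrk1 (8.01 and 7.45), the granzyme Gzma (7.48 and 7.18) and the chemokine Ccl5 (7.49 and 7.05). On the Gr1lo arrays with beads, Klrd1 was at 5.26 and 5.28, Klrk1 at 6.82 and 6.61, Gzma at 7.36 and 7.31 and Ccl5 at 6.95 and 7.04. The part of NK cells in the S1pr5 level was not tested. Tbx21, which encodes the T-bet factor that drives S1pr5 in NK cells, was below background throughout (4.32 to 4.73). Zeb2, another factor of that programme, differed by 0.06 ± 0.09 between subsets (limma adjusted p = 0.633).

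S1pr5 differed from each of the other receptors in how far it separated the subsets. On each array the level of another receptor was subtracted from that of S1pr5, and the means of these values on the 4 Gr1lo and 4 Gr1hi arrays were compared by a two-sided exact permutation test over all 70 assignments of arrays. The subset difference of S1pr5 exceeded that of S1pr1 by 5.94, of S1pr2 by 6.28, of S1pr3 by 5.99 and of S1pr4 by 5.30 log2 units. For each, the exact permutation p was 0.0286, the smallest that 4 arrays against 4 allow, and it was 0.0286 after Benjamini-Hochberg adjustment over the 4 receptors. The 4 comparisons share the S1pr5 values, whose step between the subsets far exceeds that of the others, so each had to reach this p. They are therefore not separate support for the S1pr5 result, and only the sizes of the differences are read. Within bead states the differences were 5.22 to 5.98 without beads and 5.39 to 6.57 with beads. With arrays permuted only within their bead state, the smallest possible p is 0.0556, and each comparison gave that value. With every level under background raised to it, an alternative chosen after seeing the data, the differences were 4.62 (S1pr1), 5.0 (S1pr2), 4.62 (S1pr3) and 4.03 (S1pr4).

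S1pr4, which signals mainly in blood cells, was the other receptor that was higher in Gr1lo cells. It read 8.94 and 9.18 on Gr1lo arrays without beads and 8.94 and 9.21 on those with beads. On Gr1hi arrays it read 8.74 and 8.59 without beads and 8.47 and 8.09 with beads. All Gr1lo arrays lay above all Gr1hi arrays, and all were above background. With beads S1pr4 was 0.79 ± 0.15 higher in Gr1lo cells (limma adjusted p = 0.00491), a 1.73-fold difference. Without beads the difference was 0.39 ± 0.15 and was not called (limma adjusted p = 0.102), although it was with arrays centred on their medians (0.49, limma adjusted p = 0.0457). Averaged over bead state S1pr4 was 0.59 ± 0.11 higher (limma adjusted p = 0.00249). The test of whether its subset difference varied with beads gave 0.40 ± 0.21 (limma adjusted p = 0.691).

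S1pr2, the receptor known for opposing migration, ran the other way. It read 8.69 and 8.73 on Gr1hi arrays without beads and 8.71 and 8.77 on those with beads, against 8.33 and 8.36 on Gr1lo arrays without beads and 8.35 and 8.34 on those with beads. The subsets did not overlap, and the spread within groups was small (SD 0.01 to 0.05). S1pr2 was 0.37 ± 0.08 lower in Gr1lo cells without beads (limma adjusted p = 0.0105) and 0.39 ± 0.08 lower with beads (limma adjusted p = 0.00627). The call was lost without array 2 of the Gr1hi group without beads (-0.34, limma adjusted p = 0.0666) or, for cells with beads, without array 2 of the Gr1hi group with beads (-0.36, limma adjusted p = 0.0518). The second S1pr2 probe set gave a larger difference averaged over bead state, -0.69 ± 0.08 against -0.38 ± 0.06, and was called as well.

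S1pr1 and S1pr3 had no reading above background. S1pr1, the lymphocyte egress receptor, read 6.67 and 6.63 in bead-free Gr1hi cells, 6.93 and 6.75 with beads, 6.77 and 6.75 in Gr1lo cells without beads and 6.65 and 6.63 with beads. S1pr3 lay between 5.66 and 6.02 on the 8 arrays. Averaged over bead state, S1pr1 differed between the subsets by -0.05 ± 0.06 (95% interval -0.19 to 0.10) and S1pr3 by -0.09 ± 0.08 (-0.26 to 0.08). Neither was called (limma adjusted p = 0.621 and 0.387), and the sign for S1pr1 turned with median centring (0.03) and cyclic loess (0.02). Of the 10 endothelial markers, Kdr (7.26 to 7.75) and Egfl7 (7.22 to 7.60) were above background on all arrays and Pecam1 on the Gr1lo arrays (7.90 to 8.87). The others, among them Cdh5 (5.46 to 6.04) and Tek (3.83 to 4.16), were below it on all.

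In the order of group means, S1pr5 was highest in Gr1lo cells with beads, then in Gr1lo cells without beads, groups whose arrays did not overlap but whose difference was not called. Its Gr1hi groups lay below background and have no order. For S1pr4 the order was Gr1lo with beads, Gr1lo without, Gr1hi without and Gr1hi with beads. Its Gr1lo groups, 0.01 apart, overlapped, its Gr1hi groups did not, and neither bead difference was called. For S1pr2 the order was Gr1hi with beads, Gr1hi without, Gr1lo with and Gr1lo without beads, and the groups within each subset overlapped. For S1pr1 and S1pr3 all groups lay under background, and no order is given.

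Of the enzymes, the lyase and 1 of the kinases were lower in Gr1lo cells. Sgpl1, which cleaves S1P irreversibly, read 10.36 and 10.20 in bead-free Gr1hi cells and 10.58 and 10.49 with beads, against 9.49 and 9.38 in Gr1lo cells without beads and 9.53 and 9.29 with beads. The subsets did not overlap. It was 0.85 ± 0.11 lower in Gr1lo cells without beads (1.80-fold; limma adjusted p = 0.000875) and 1.13 ± 0.11 lower with beads (2.18-fold; limma adjusted p = 0.000146). The second Sgpl1 probe set gave a smaller difference averaged over bead state, -0.48 ± 0.14 against -0.99 ± 0.08, and was still called there (limma adjusted p = 0.0248), but not in the cells without beads alone (-0.26 ± 0.19, limma adjusted p = 0.397).

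Sphk2, the kinase found in the nucleus and at organelles, read 8.58 and 8.52 in bead-free Gr1hi cells and 8.62 and 8.44 with beads. In Gr1lo cells it read 8.14 and 7.70 without beads and 8.08 and 7.89 with beads, below every Gr1hi array. It was 0.63 ± 0.15 lower without beads (limma adjusted p = 0.0155) and 0.55 ± 0.15 lower with beads (limma adjusted p = 0.0248). Leaving out either Gr1hi array of the same bead state, or array 2 of the Gr1lo group, ended these calls (limma adjusted p 0.0610 to 0.0846 without beads and 0.050 to 0.142 with beads); without array 2 of the Gr1lo group without beads the difference was -0.41. Averaged over bead state it was 0.59 ± 0.10 lower (limma adjusted p = 0.00223). The second Sphk2 probe set, below background on all arrays, gave a smaller difference, -0.34 ± 0.07 averaged over bead state. It was called there (limma adjusted p = 0.00608) and without beads (-0.40 ± 0.10, limma adjusted p = 0.0239). With beads it was not called (-0.28 ± 0.10, limma adjusted p = 0.0833). Sphk1, the inducible cytosolic kinase, lay between 5.33 and 5.88, below background on all arrays. Its difference averaged over bead state was -0.09 ± 0.08 (95% interval -0.27 to 0.09; limma adjusted p = 0.429).

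Counted together, 1 of the 8 genes was higher and 3 were lower in Gr1lo cells without beads, where 23.6% of all 18193 genes were called (10% higher, 13.6% lower). With beads 2 were higher and 3 lower, where 26.5% of all genes were called (11.8% higher, 14.6% lower), and averaged over bead state the counts were the same, where 35.6% were called (14.8% higher, 20.9% lower). Calls between the subsets were thus common among all genes, and the count of members is read against that. Their median difference averaged over bead state was -0.09, beside -0.05 for all genes. Of all calls averaged over bead state, 41.4% were higher in Gr1lo cells, against 57.4% with arrays centred on their medians and 50.6% with cyclic loess. The 5 calls of the members were present under both scalings. Of the 5 called, S1pr4, S1pr2, Sphk2 and Sgpl1 were above background on all 8 arrays, and S1pr5 on the Gr1lo arrays alone.

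Bead carriage did not pass the test for any of the 8 genes, in either subset. In Gr1hi cells 0 of 8 were called with limma, where 0.247% of all genes were (0.148% higher, 0.0989% lower), and 3 had an unadjusted p under 0.05, as did 9.93% of all genes: S1pr4 (-0.39 ± 0.15), S1pr5 (-0.34 ± 0.11) and Sgpl1 (0.26 ± 0.11), with limma adjusted p of 0.446, 0.340 and 0.489. In Gr1lo cells 0 of 8 were called, where 0.225% of all genes were (0.0824% higher, 0.143% lower), and 1 had an unadjusted p under 0.05, as did 13.2% of all genes: Sphk1 (0.36 ± 0.11, limma adjusted p = 0.256), below background. S1pr5 in Gr1lo cells differed by 0.22 ± 0.11 (95% interval -0.03 to 0.47; limma adjusted p = 0.425). The bead effect on S1pr5 in Gr1lo cells minus that in Gr1hi cells was 0.56 ± 0.15 (limma, unadjusted p = 0.00550, adjusted p = 0.521), 1 of its parts being a difference between Gr1hi readings below background. None of the 8 genes was called for that difference, where 0.044% of all genes were (0.011% higher, 0.033% lower), and 3 had an unadjusted p under 0.05 (S1pr5, and S1pr1 and Sphk1, which were below background on all arrays), as did 7.84% of all genes. The poly-A controls, as given above, were higher with beads in both subsets, and so was the mean of 10 tissue macrophage markers in Gr1hi cells (7.19 to 7.40 without, 8.12 to 8.30 with beads). Of these markers, 3 were called higher with beads in each subset (Slc40a1, Gpnmb and Spic), and the part of either set in the bead differences was not tested.

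**Figure D2:**
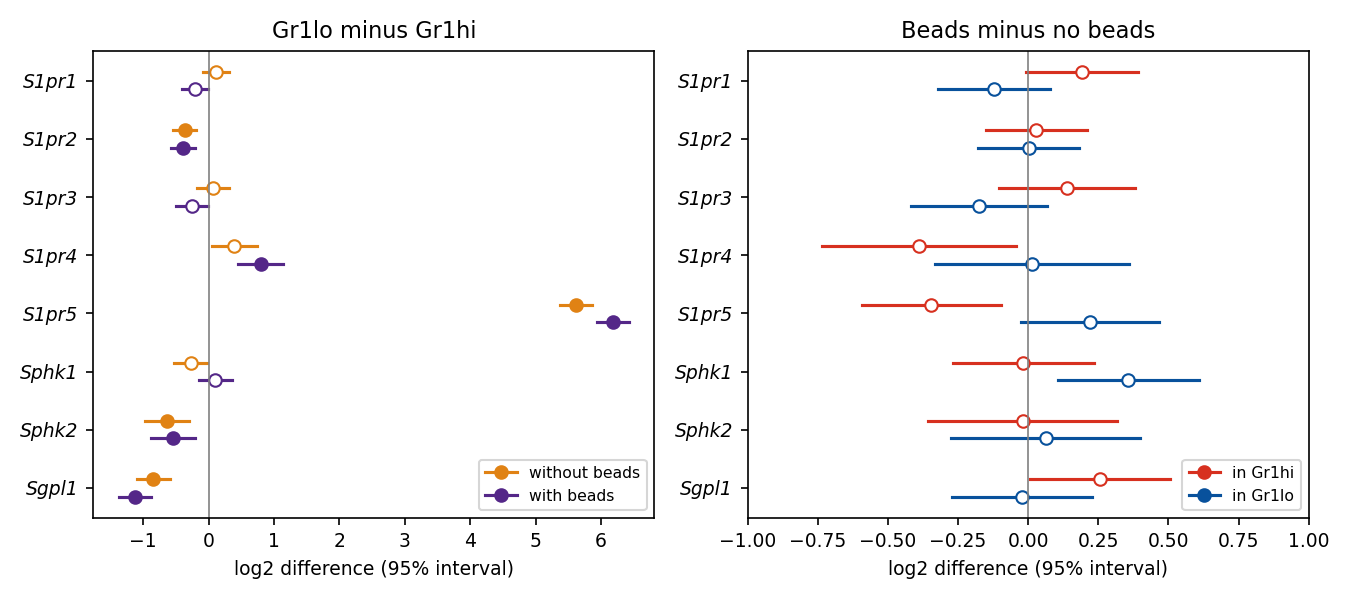
Log2 differences of the 8 genes with 95% intervals from limma, between subsets (left) and between bead states (right); filled dots were called at an adjusted p under 0.05 and open dots were not. S1pr5 stands at 5.62 and 6.18 between the subsets, the other genes lie between -1.13 and 0.79, and all dots for beads are open; the horizontal scales of the panels differ.

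Of 85 other listed symbols of S1P handling, sphingolipid metabolism and receptor signalling, 74 were measured, 5 of them lysophosphatidic acid receptors. Averaged over bead state, 24 were higher and 16 lower in Gr1lo cells, where 14.8% of all genes were higher and 20.9% lower, with a median of 0.02 beside -0.05 for all genes. The call was kept under every alternative that tested the gene for 30 of these 40. For Abcg1, Asah2, Cers2, Gna11 and Rac1 it was lost when the arrays were scaled otherwise, and for Etnk1, Foxo1, Gba2, Lpar4 and Rhoa on leaving out some single arrays. Called in 1 bead state but not averaged over bead state were, without beads, Sptssb (lower) and Lpar1 (higher), both with group means below background. With beads they were Arrb2 (higher) and Smpd2 (lower). Of the 40, Pcyt2 and Gna11 were called without beads but not with beads. Plpp2, Kdsr, Gba2 and Rac1 were called with beads but not without. In the following, differences are Gr1lo minus Gr1hi averaged over bead state, in log2 units with their SE. The count of calls in each list is read against the shares of all genes, 14.8% higher and 20.9% lower.

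Among genes that move or dephosphorylate S1P, 2 of 6 exporters and carriers were lower: Abcc1, an ABC transporter that can export S1P (-0.58 ± 0.08, limma adjusted p = 0.000444), and the sterol transporter Abcg1 (-0.19 ± 0.06). The exporters Spns2 and Mfsd2b, at 5.62 and 5.53 in Gr1lo cells, were under background and not called. Of 5 phosphatases, Sgpp1, which turns S1P back to sphingosine in the endoplasmic reticulum, was higher (0.41 ± 0.08, limma adjusted p = 0.00355). The lipid phosphate phosphatase Plpp1 was higher too (0.81 ± 0.10), though below background in both subsets, and Plpp2 was lower (-0.67 ± 0.12). Of the genes that handle the products of the lyase, 3 of 4 were higher (14.8% of all genes were) and none lower, against 2 of 4 higher without beads alone and 1 of 4 with beads. They were Aldh3a2, which oxidises the fatty aldehyde that the lyase releases (0.71 ± 0.07, limma adjusted p = 6.76e-05), and Pcyt2 (0.40 ± 0.08) and Etnk1 (0.24 ± 0.07, a call lost without some arrays) of phosphatidylethanolamine synthesis. Aldh3a2 thus differed in the direction opposite to that of Sgpl1.

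Genes upstream of sphingosine went both ways. Of 5 ceramidases, which release sphingosine from ceramide, Acer3 was higher (0.82 ± 0.07, limma adjusted p = 4.28e-05), Asah2 lower (-0.20 ± 0.06, below background), and the lysosomal Asah1 not called (-0.12 ± 0.07). Of 14 measured ceramide synthesis genes, 1 was higher and 4 lower. Lower were the serine palmitoyltransferase subunits Sptssa (-0.87 ± 0.07, limma adjusted p = 1.81e-05) and Sptlc2 (-0.37 ± 0.06), the reductase Kdsr (-0.46 ± 0.10) and the ceramide synthase Cers2 (-0.18 ± 0.05). Ormdl1, which restrains serine palmitoyltransferase, was higher (0.64 ± 0.07).

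Of the 12 measured genes of sphingomyelin and glucosylceramide turnover, 5 were higher and 2 lower, and the sphingomyelin synthases parted. Sgms2, the synthase of the plasma membrane, read 10.72 to 11.09 on Gr1hi arrays and 6.84 to 8.34 on Gr1lo arrays (-3.20 ± 0.19, limma adjusted p = 5.14e-06). Sgms1, the synthase of the Golgi, was higher in Gr1lo cells (1.15 ± 0.17, limma adjusted p = 0.000752). Smpdl3b, a membrane phosphodiesterase related to acid sphingomyelinase, read 11.77 to 11.99 on Gr1lo arrays and 9.20 to 9.41 on Gr1hi arrays (2.57 ± 0.07, limma adjusted p = 1.08e-07). Its relative Smpdl3a (0.59 ± 0.06), the glucosylceramide synthase Ugcg (0.76 ± 0.06) and the glucosylceramidase Gba2 (0.29 ± 0.07) were higher, and the ceramide kinase Cerk was lower (-1.49 ± 0.16).

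**Figure D3:**
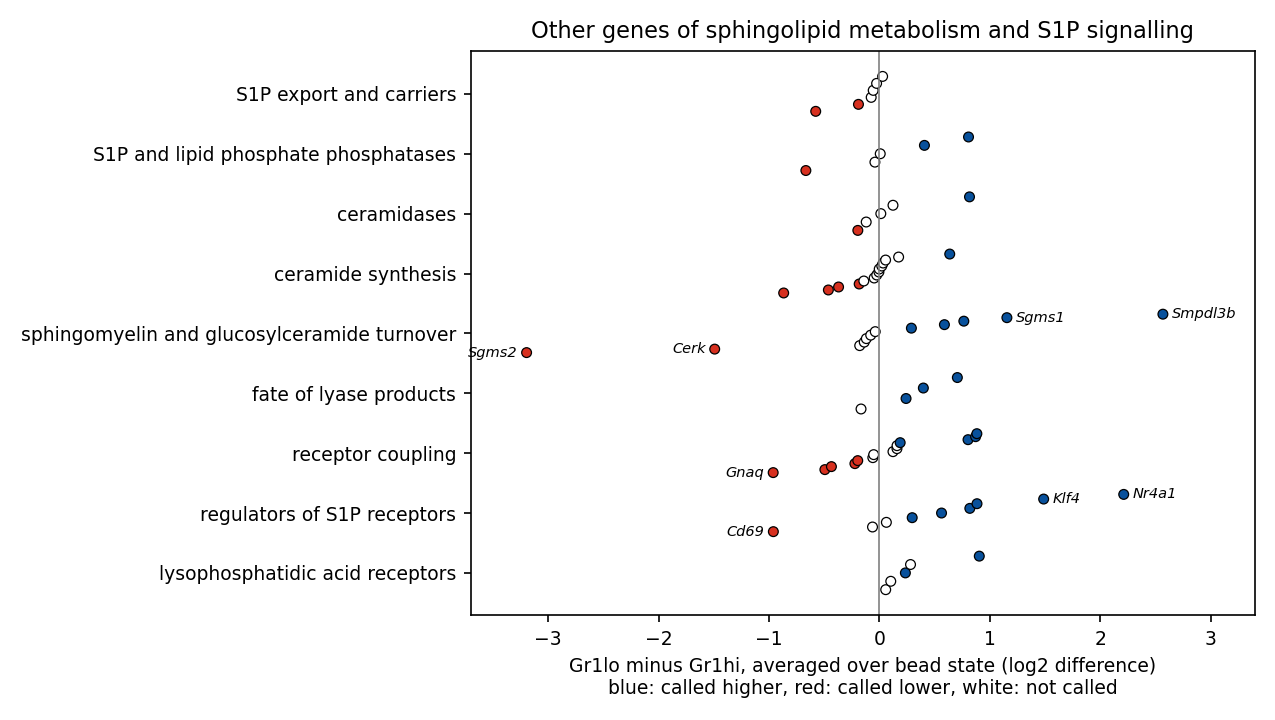
Differences of 74 other genes of the pathway between Gr1lo and Gr1hi monocytes, averaged over bead state, in log2 units, by list. Each dot is a gene, blue where called higher, red where called lower and white where not called, with names where the difference exceeds 0.95; Sgms2 stands at -3.20 and Smpdl3b at 2.57.

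Genes that couple to the receptors or regulate them were also measured. Of 14 coupling genes 4 were higher and 5 lower. The receptor kinases Grk5 (0.88 ± 0.11) and Grk6 (0.80 ± 0.10) and the arrestin Arrb1 (0.87 ± 0.11), which take activated receptors out of signalling, were higher, as was Rhoa (0.19 ± 0.06). Lower were the G-protein subunits Gnai2 (-0.43 ± 0.06), Gnaq (-0.96 ± 0.16), Gna12 (-0.49 ± 0.08) and Gna11 (-0.22 ± 0.07), and the GTPase Rac1 (-0.20 ± 0.06). Of 9 regulators 6 were higher and 1 lower, where 14.8% of all genes were higher and 20.9% lower. Of the 9, 8 had a mean above background, as had 8788 of all 18193 genes. Nr4a1, the transcription factor on which nonclassical monocytes depend and also a member of the marker list above, was 2.21 ± 0.07 higher. Klf4 (1.49 ± 0.07) and Klf2 (0.88 ± 0.09, limma adjusted p = 7.39e-05), the latter a known activator of S1pr1 in lymphocytes, were higher, while S1pr1 was below background. Stat3 (0.82 ± 0.07), the phosphatase Ptpn6 (0.56 ± 0.08) and Foxo1 (0.30 ± 0.08) were higher too. Cd69, whose product binds S1pr1 and removes it from the surface, was lower (-0.96 ± 0.08, limma adjusted p = 2.40e-05). Its readings were below background on all Gr1lo arrays (6.55 to 6.97) and 7.56 to 7.92 on Gr1hi arrays. Of 5 receptors for the related lipid lysophosphatidic acid, Lpar6 (0.90 ± 0.10) and, below background, Lpar4 (0.24 ± 0.08) were higher.

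Calls for beads were rare among these genes, as they were among all genes. In Gr1hi cells 1 of 74 was called, where 0.247% of all genes were. This was Abca1, a cholesterol exporter that can also release S1P, which was higher with beads (0.89 ± 0.12, limma adjusted p = 0.0347). Its call was lost without any 1 of the 4 Gr1hi arrays (limma adjusted p 0.181 to 0.257) and with the mean of its probe sets (0.73, limma adjusted p = 0.134). In the same contrast the macrophage markers Spic (1.47 ± 0.11), Gpnmb (1.39 ± 0.17) and Slc40a1 (1.2 ± 0.14) rose, and their part in the Abca1 difference was not tested. In Gr1lo cells 0 of 74 were called by limma, where 0.225% of all genes were. For the difference between the bead effects 0 of 74 were called, where 0.044% of all genes were.

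The genes whose profile over the 8 arrays was nearest to that of S1pr5 were found by the root mean square difference between profiles centred on their means, among 9078 genes with a mean above background in at least 1 group, predicted genes without a name left aside. The nearest were the growth factor Vegfc (0.21), the sodium, potassium and chloride cotransporter Slc12a2 (0.36), the phosphatase Dusp16 (0.62), the scavenger receptor Cd36 (0.69), the ribonuclease family gene Ear3 (0.72) and the integrin chain Itgax (0.73). The enolase Eno3 (0.76), the fatty acid binding protein Fabp4 (0.77), the lymphoid transcription factor Ikzf3 (0.77) and the receptor Treml4 (0.88) followed. All values are in log2 units over 8 arrays that share their preparation, and they describe likeness of pattern, which is dominated by the step between the subsets and, for S1pr5 and several others, includes Gr1hi readings below background. The subset differences of these 10 genes, averaged over bead state, ran from 4.29 (Treml4) to 6.25 (Vegfc). Treml4, Eno3 and Cd36 are also in the nonclassical marker list. For beads in Gr1hi cells, Eno3 (0.86 ± 0.12) and Treml4 (0.67 ± 0.09) were called higher (limma adjusted p = 0.0347 for each), where 0.148% of all genes were. The other 8 were not called there. None of the 10 was called for beads in Gr1lo cells or for the difference between the bead effects.

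**Figure D4:**
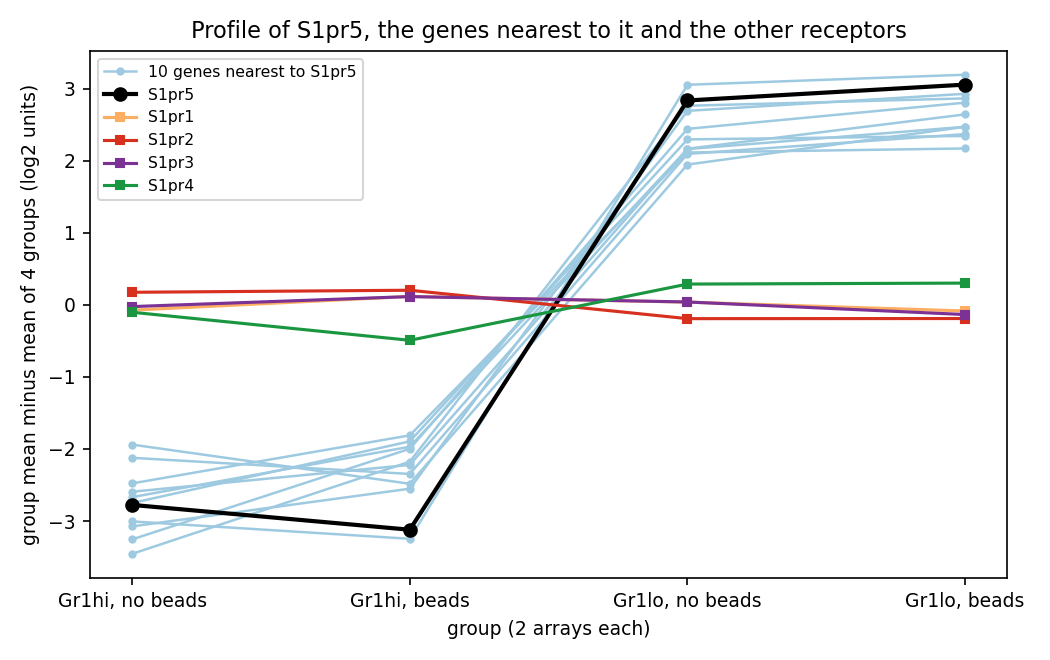
Group means of S1pr5 (black), of the 10 genes nearest to it (light blue) and of the other S1P receptors, each less its mean over the 4 groups, in log2 units. S1pr5 steps from about 3 units below to about 3 above its mean between the subsets, while S1pr1, S1pr2, S1pr3 and S1pr4 stay within 0.5 of theirs.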

How the data were processed

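Monocytes from 4 groups, with 2 Affymetrix mouse 430 2.0 arrays each, were measured. The authors deposited log2 values after RMA (background correction, quantile normalization and summary by probe set), per the submitters' processing notes, which also name limma, without versions. Of 45101 probe sets, 34945 had 1 gene symbol, 932 several and 9160 none, and 64 were controls; no value was missing. The probe set with the highest mean stood for each of 18193 genes. limma 3.58.1 in R 4.3.3 fitted the 4 group means on all 8 arrays. A gene was called at a Benjamini-Hochberg adjusted p under 0.05 over all genes, and the scripts were tested on simulated data. The number of arrays limits the precision. The members and gene lists were chosen with earlier results of these data known. The genes named are the members, each listed gene called in a contrast, up to 8 a list by smallest p averaged over bead state, and the 10 nearest to S1pr5; markers were named after their values were seen. Lists of T cell, B cell, endothelial, platelet, erythroid, neutrophil, dendritic cell and tissue macrophage markers were also measured, and the closing section gives them. Alternatives were the mean of all probe sets, every probe set tested, dim genes left out, median centring, cyclic loess, trend and robust estimation, array weights, the compared arrays alone, a replicate block and leaving out each array.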

Additional observations from a re-analysis of the deposited data

How the results depend on the processing

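With the probe set that stands for each gene, or the mean of its probe sets, S1pr5 and Sgpl1 kept their calls between the subsets under every alternative. This held without beads, with beads and averaged. S1pr4, S1pr2 and Sphk2 kept theirs averaged over bead state. Because S1pr1, S1pr4 and S1pr5 have a single probe set each, averaging probe sets left their values unchanged. For these genes it is no check on the choice of probe set. The second Sgpl1 probe set by itself was not called without beads (-0.26, limma adjusted p = 0.397). Nor was the second Sphk2 probe set with beads (-0.28, limma adjusted p = 0.0833). S1pr5 averaged over bead state ranged from 5.83 to 5.98. Leaving out 1 array gave 2 to 4 members called without beads (2 without array 2 of the Gr1hi group without beads) and 3 to 5 with beads (3 without array 2 of the Gr1hi group with beads). S1pr5 against the other receptors gave 5.94 (S1pr1), 6.28 (S1pr2), 5.99 (S1pr3) and 5.30 (S1pr4) with arrays permuted within bead state, each at the smallest exact permutation p allowed, 0.0556. Leaving out 1 array it ranged from 5.84 to 6.05, 6.19 to 6.35, 5.90 to 6.09 and 5.25 to 5.36, at the smallest p that 7 arrays allow, 0.0571.

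The sign turned only for differences that were not called, and the cause was not tested. With the mean of all probe sets these were S1pr3 without beads (-0.17), and for beads S1pr3 (-0.0397) and Sphk1 (0.12) in Gr1hi, S1pr3 (0.0442) and Sphk2 (-0.025) in Gr1lo, and S1pr3 for the difference between bead effects (0.0838). With median centring they were S1pr1 averaged (0.034) and, for beads in Gr1lo, S1pr2 (-0.022) and S1pr4 (-0.01). With cyclic loess they were S1pr1 averaged (0.0166), Sphk2 for beads in Gr1hi (0.0097) and Sgpl1 for beads in Gr1lo (0.0428). Leaving out 1 array, S1pr3 without beads ranged from -0.048 to 0.18 and Sphk1 with beads from -0.028 to 0.23. For beads in Gr1hi, S1pr2 ranged from -0.005 to 0.062, Sphk2 from -0.11 to 0.072 and Sphk1 from -0.10 to 0.061. For beads in Gr1lo, S1pr2 ranged from -0.0165 to 0.0195, Sphk2 from -0.16 to 0.29, S1pr4 from -0.12 to 0.15 and Sgpl1 from -0.14 to 0.10. For the difference between bead effects, S1pr2 ranged from -0.0605 to 0.0065 and Sphk2 from -0.14 to 0.31.

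Over all genes, the calls were 4288 without beads, 4817 with beads, 6484 averaged, 45 for the Gr1hi bead contrast, 41 for that in Gr1lo and 8 for the difference between bead effects. With every probe set tested, more features gave 7277, 8302, 11491, 68 and, for the last, 13. Trend and robust estimation gave 121, 127 and 17 for the bead contrasts, array weights gave 104 in Gr1hi, the compared arrays alone 12 in Gr1lo, and leaving out dim genes or averaging probe sets 5 for the last. Leaving out 1 array gave 2631 to 4125 without beads, 0 to 58 for beads in Gr1hi, 17 to 354 in Gr1lo and 1 to 167 for the last, with 354 and 167 without array 2 of the Gr1lo group without beads. Of calls without beads, 42.4% were higher in Gr1lo cells, against 60.1% with median centring and 51.0% with cyclic loess; with beads the shares were 44.7%, 55.2% and 50.5%. Arrays of the same number deviated together within Gr1hi (correlation 0.36) and Gr1lo (0.27) but not across subsets (-0.02 to 0.09). The main fit did not take the numbers as pairs. The replicate block is a term shared by all arrays and does not model pairing within a subset. Such pairing, which bears on the bead contrasts, was not tested. With the replicate block the members called were 4 without beads, 5 with beads, 5 averaged and 0 for each bead contrast, as without it. Over all genes the block gave 4663 calls without beads, 56 for the Gr1hi bead contrast and 54 for that in Gr1lo.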

Other observations

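Markers of other cell types moved with some groups. Neutrophil markers (8 measured) had a mean of 9.02 to 9.38 on Gr1hi arrays without beads, 8.37 to 8.75 with beads and 6.79 to 7.24 on Gr1lo arrays. Dendritic cell markers (8 measured) were at 7.05 to 7.14 on Gr1lo arrays without beads and 6.26 to 6.37 with beads. Tissue macrophage markers (10 measured) were at 7.19 to 7.40 on Gr1hi arrays without beads and 8.12 to 8.30 with beads. On Gr1lo arrays they were at 6.77 and 8.30 without beads, array 1 being the higher, and at 8.07 to 8.37 with beads. T cell (5.86 to 6.20), B cell (5.73 to 6.03) and endothelial (5.91 to 6.23) list means were below background on all arrays. Platelet markers were at 7.62 to 7.95, the highest on array 1 of Gr1lo cells without beads, where Pf4 was at 11.36 against 7.70 on array 2. The adhesion molecule Pecam1, listed as endothelial, was 2.88 ± 0.13 higher in Gr1lo cells, at 7.90 to 8.87 against 5.17 to 5.77. Klrd1 fell with beads in Gr1lo cells (-2.4 ± 0.12, limma adjusted p = 7.68e-05). Erythroid markers (5 measured) were at 6.52 to 6.70 and shared monocyte markers (6 measured) at 12.54 to 12.79.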
